A study of Mus musculus with 25 samples.

Results

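Endoplasmic reticulum (ER) stress and folding genes were followed in pituitaries of shRb mice by RNA sequencing. The 39 genes were taken by symbol from a list written for this account, all 39 were present in both deposited gene tables (15315 genes in the long-term table and 14007 in the short-term table), and all 39 passed the filter on low reads. The shRb mice carried Rosa26 rtTA and Col1a1 shRb5-4, so that doxycycline (dox) in the drinking water switched on a GFP-linked short hairpin RNA against Rb, and removal of dox let RB return. The long-term experiment (poly(A) libraries, 12 mice) held 3 females after 6 weeks on dox (6w+dox), 2 females and 2 males after 12 weeks on dox (12w+dox), and 3 females and 2 males after 6 weeks on dox followed by 6 weeks off it (12w-res). The short-term experiment (libraries depleted of ribosomal RNA, 13 mice) held 3 males after 16 weeks on dox (16w+dox), 4 females 1 day after dox removal (1d-dox), 3 males after 3 days (3d-dox) and 3 females after 5 days (5d-dox). All mice carried the same dox-inducible hairpin from 1 embryonic stem cell clone, with rtTA under the broadly active Rosa26 promoter. No library came from a mouse that never received dox, and each library was made from pituitary tissue rather than sorted cells. The 6w+dox, 12w+dox and 16w+dox mice were on dox, and the other groups had been taken off it. Effects of dox, of the hairpin and of RB therefore cannot be told apart between them.

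The ER folds secreted and membrane proteins, and the pituitary cells that make hormone precursors such as proopiomelanocortin send a heavy load of protein through it. When unfolded proteins accumulate, sensors in the ER membrane (IRE1, PERK and ATF6) start the unfolded protein response: IRE1 splices the mRNA of the transcription factor XBP1, ATF6 is cut to release a transcription factor, and PERK phosphorylates eIF2alpha, which slows translation and favours the translation of ATF4. Together they raise chaperones, disulfide isomerases and the machinery that exports misfolded proteins for degradation. ATF4 is also reached from other eIF2alpha kinases, in what is called the integrated stress response. Activity of these sensors lies in splicing, cleavage and phosphorylation, which gene-level reads do not measure.

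Promoter sequences of the genes are shown first. The binding letters of these factors were not used as a filter. The genes were listed by name for their part in this response, however. High shares of its elements were therefore likely from the start and are no independent finding. RefSeq promoters (GRCm38.p6, 250 bases before to 50 bases after the annotated start) were given for 33 of the 39 genes and searched on both strands. The ER stress response element (ERSE: CCAAT, 9 bases of any kind, CCACG), to which ATF6 and XBP1 bind together with NF-Y, was matched in 10 of the 33 (30.3%), against 39 of 32841 promoters of the same length (0.119%). The related ERSE-II (ATTGG, 1 base of any kind, CCACG) was matched in Dnajb11 and Herpud1 (6.06% of the 33, 0.0365% of all promoters), so that 12 genes (36.4%) held one or the other, against 0.155% of all promoters. The core of the unfolded protein response element (TGACGTG) was matched in Hspa5 (3.03% of the 33, 2.01% of all), and the ATF4 element (TGATGNAA) in Asns, Chac1, Herpud1 and Trib3 (12.1% of the 33, 3.97% of all). In these promoters 0 matches overlapped another. A match is a description of letters and not evidence of binding. The stretches that lie before the start are printed below on the strand of the gene, 5′ to 3′, with the matched letters of each element in capitals and the spacer inside an ERSE or ERSE-II in lower case. Elements on the opposite strand appear as their reverse complement.
Hspa5, chr2:34771918-34772058, plus strand, UPRE core and ERSE: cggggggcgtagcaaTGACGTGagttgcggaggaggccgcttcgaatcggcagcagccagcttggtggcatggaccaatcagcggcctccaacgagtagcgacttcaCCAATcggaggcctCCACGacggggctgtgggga
Hsp90b1, chr10:86705518-86705671, minus strand, ERSE on both strands: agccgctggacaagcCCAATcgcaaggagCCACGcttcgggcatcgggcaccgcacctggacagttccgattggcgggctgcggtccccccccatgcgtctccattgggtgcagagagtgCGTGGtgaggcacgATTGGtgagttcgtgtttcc
Calr, chr8:84847060-84847108, minus strand, ERSE: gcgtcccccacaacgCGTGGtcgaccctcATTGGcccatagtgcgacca
Canx, chr11:50325785-50325833, minus strand, ERSE: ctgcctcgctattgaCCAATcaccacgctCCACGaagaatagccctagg
Dnajc3, chr14:118937812-118937860, plus strand, ERSE: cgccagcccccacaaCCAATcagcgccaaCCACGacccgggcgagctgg
Creld2, chr15:88819505-88819553, plus strand, ERSE: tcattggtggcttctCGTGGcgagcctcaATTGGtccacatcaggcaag
Pdia6, chr12:17266476-17266524, plus strand, ERSE: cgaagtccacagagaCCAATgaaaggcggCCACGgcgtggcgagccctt
Ero1lb, chr13:12565667-12565715, plus strand, ERSE: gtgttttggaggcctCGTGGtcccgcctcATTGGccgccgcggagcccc
Syvn1, chr19:6046517-6046565, plus strand, ERSE: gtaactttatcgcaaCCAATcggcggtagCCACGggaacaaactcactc
Derl3, chr10:75893227-75893275, plus strand, ERSE: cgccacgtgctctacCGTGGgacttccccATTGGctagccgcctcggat
Herpud1, chr8:94386302-94386402, plus strand, ATF4 element and ERSE-II: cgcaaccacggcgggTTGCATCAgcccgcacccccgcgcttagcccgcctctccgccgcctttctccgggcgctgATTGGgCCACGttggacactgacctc
Chac1, chr2:119351034-119351071, plus strand, ATF4 element: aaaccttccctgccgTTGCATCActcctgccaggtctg
Asns, chr6:7693210-7693247, minus strand, ATF4 element: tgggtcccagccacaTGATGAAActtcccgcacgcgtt

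Values are in FPM, reads on a gene scaled by the size factor of the library, which is the unit of the deposited tables. The libraries held 19066053 to 28968476 reads on genes in the long-term table and 9573101 to 13036900 in the short-term table, and a listed gene had 33 to 56354 reads in a long-term mouse and 29 to 28581 in a short-term mouse. The labels were checked on the targeted gene: Rb1 had a mean of 3.16 ± 1.70 FPM in the 6w+dox mice (SD, n = 3). It was 3.21 ± 0.700 FPM in the 12w+dox mice (n = 4) and 18.2 ± 1.66 FPM in the restored mice (12w-res, n = 5). The GFP transcript, listed in the short-term table, fell from 1247 ± 192 FPM (n = 3) at 16w+dox to 606 ± 199 (n = 4) after 1 day, 122 ± 46.0 (n = 3) after 3 days and 11.7 ± 3.08 (n = 3) after 5 days, while Rb1 there was 4.19 ± 0.709, 4.46 ± 1.07, 5.01 ± 0.911 and 5.12 ± 0.239 FPM. Pomc, the proopiomelanocortin gene, made up 39.1% to 43.2% of the reads of a 12w-res library, compared with 12.9% to 23.0% in 12w+dox and 13.6% to 32.2% in 6w+dox libraries, which bears on scaling and is taken up with each comparison. Mouse 1 of 12w-res, a male, stood apart in several ATF4 targets, mouse 3 of 6w+dox was the lowest of its group in all 11 chaperones and co-chaperones, and mouse 2 of 16w+dox stood apart in Ern1. For some of the genes in which these mice stood apart, values are also given without them. Fold changes of single chaperones are not given without mouse 3 of 6w+dox. In bulk tissue, fewer cells of a type and less RNA per cell cannot be told apart.

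The genes spanned a wide range of abundance. Divided by the length of the longest annotated transcript, the highest group means in 12w-res were those of the lectin chaperone Calr (940 FPM per kb), the glycoprotein disulfide isomerase Pdia3 (854), the Hsp70 chaperone Hspa5, known as BiP (569), the Hsp90 chaperone Hsp90b1 (491) and the disulfide isomerase P4hb (446). The same 5 genes led at 12w+dox, in the same order, and ran from 492.5 FPM per kb for Calr to 257 for P4hb. At the other end were the sensor Ern1 (3.77 FPM per kb in 12w-res) and Selenbp1 (3.04), and at 12w+dox Creb3l1 was the lowest (1.92). At 16w+dox Calr (238 FPM per kb) and Hsp90b1 (179) led, but the library types differ between the experiments, so that levels are compared only within each. As a share of all reads on genes, the 39 genes together took 1.21% to 1.29% in 12w-res, compared with 0.934% to 1.12% in the 12w+dox and 1.00% to 1.13% in the 6w+dox libraries. With Pomc left out of the total, the shares were 2.02% to 2.26%, 1.07% to 1.39% and 1.16% to 1.66%, and 12w-res did not overlap the other groups on either total.

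**Figure D1:**
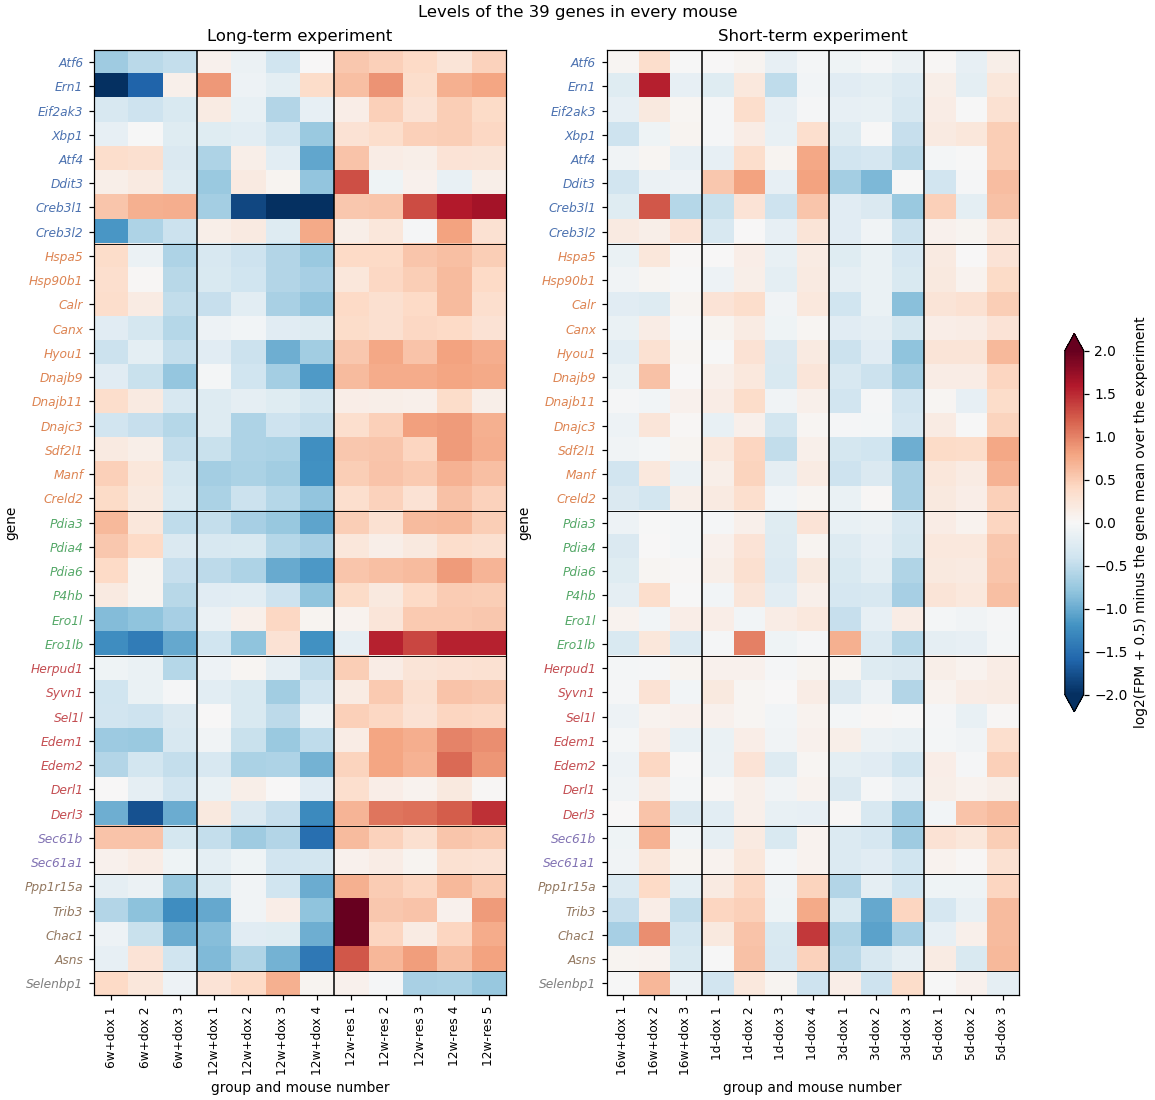
Level of each of the 39 genes in each mouse, as log2(FPM + 0.5) minus the mean of the gene over the mice of that experiment, with colours held at 2 in both directions. Columns are mice ordered by group, rows are genes ordered by role with horizontal lines between roles, and the 5 columns of 12w-res are red for nearly all rows while the short-term columns are mostly pale.

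The comparison of 12w-res with 12w+dox asks how mice of the same time since the start of treatment differed when dox had been withdrawn for 6 weeks and RB allowed to return. Of the 39 genes, 33 rose and 1 fell at an adjusted p under 0.05 (limma on log2(FPM + 0.5), adjusted over all 15315 genes), where 19.4% of all genes tested rose and 18.3% fell. The median log2 fold change of the 39 was 0.94 against 0.00 for all genes. In 30 of the 39, every 12w-res mouse was above every 12w+dox mouse, against 17.1% of all genes. With the additional demand of an absolute log2 fold change over 1, which is the threshold of the study, 19 rose and 0 fell, where 6.24% of all genes rose. The genes not called were the sensor Ern1, the stress factors Ddit3 and Creb3l2, the oxidase Ero1l and the retrotranslocation gene Derl1, at log2 fold changes of 0.09 to 0.58.

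**Figure D2:**
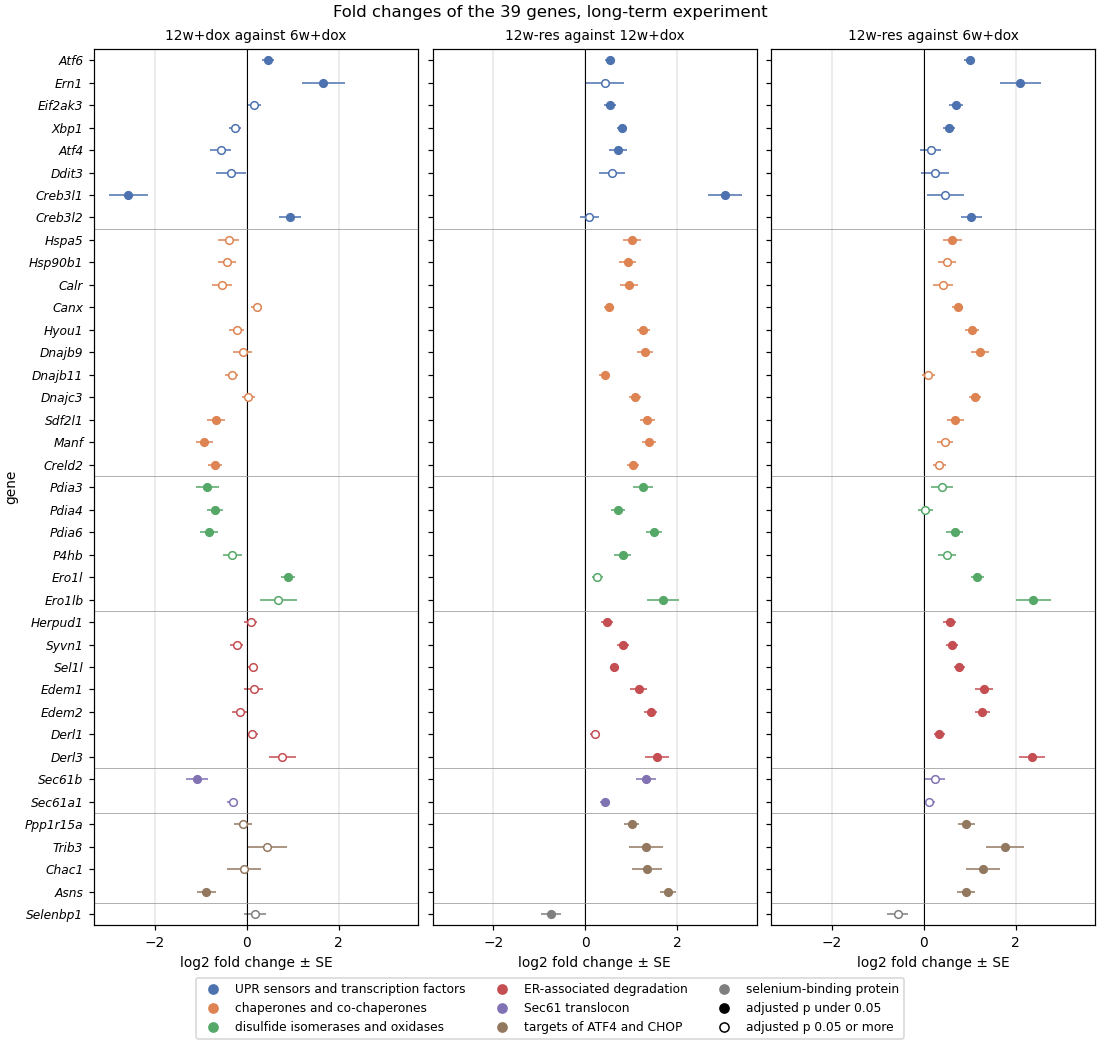
Log2 fold change with its standard error (horizontal bar) of each gene in the 3 long-term comparisons, coloured by role, with filled symbols at an adjusted p under 0.05. In the middle panel 33 filled symbols lie right of 0 and only Selenbp1 lies left of it, and in the left panel symbols lie on both sides.

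All 11 chaperones and co-chaperones rose, although Canx and Dnajb11 turned negative when the libraries were scaled to their total reads. With females only, Hspa5 and Hsp90b1 were not called (adjusted p = 0.068 and 0.060 by limma). The calls of Calr, Canx and Dnajb11 were lost there as well (adjusted p = 0.104, 0.094 and 0.180 by limma). Hspa5, which binds unfolded chains and holds the sensors inactive, was at 1965, 1967, 2176, 2260 and 2078 FPM in the 5 mice of 12w-res and at 1184, 1114, 985 and 885 in the 4 of 12w+dox. The groups were clear of each other, and the log2 fold change was 1.01 ± 0.19 (SE, adjusted p = 0.00113 by limma). Manf, a secreted ER stress protein, was at 346, 367, 354, 400 and 372 FPM against 153, 158, 152 and 105, with a log2 fold change of 1.39 ± 0.16 (adjusted p = 1.75e-05 by limma). Sdf2l1 and Dnajb9, partners of Hspa5, rose by 1.35 ± 0.17 and 1.30 ± 0.18 (log2; adjusted p = 3.61e-05 and 8.29e-05 by limma). The Hsp110-type chaperone Hyou1 went from a mean of 320 to 758 FPM (log2 fold change 1.26 ± 0.15, adjusted p = 1.90e-05 by limma), and Dnajc3, an inhibitor of PERK, from 169 to 361 FPM (1.08 ± 0.12, adjusted p = 1.61e-05). Creld2 rose by 1.03 ± 0.13, Calr by 0.94 ± 0.20 and Hsp90b1 by 0.92 ± 0.18 (adjusted p = 4.62e-05, 0.00198 and 0.00124 by limma). The smallest changes were those of Canx, the membrane lectin chaperone (0.52 ± 0.11, adjusted p = 0.00198 by limma), and the Hsp40 protein Dnajb11 (0.42 ± 0.12, adjusted p = 0.0154 by limma).

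Of the 6 disulfide isomerases and oxidases 5 rose. Pdia6, an isomerase that acts on the sensors as well as on clients, was at 602, 628, 637, 747 and 661 FPM in 12w-res and at 285, 267, 204 and 185 FPM in 12w+dox mice, which gave a log2 fold change of 1.49 ± 0.17 (adjusted p = 1.88e-05 by limma). Pdia3 rose by 1.25 ± 0.22, P4hb by 0.81 ± 0.18 and Pdia4 by 0.71 ± 0.15 (log2; adjusted p = 0.000611, 0.00277 and 0.00213 by limma). The calls of Pdia4 and P4hb were lost on total reads (adjusted p = 0.6345 and 0.2352 by limma). They were also lost with females only (adjusted p = 0.0919 and 0.0897 by limma). The ER oxidases that recharge these isomerases behaved unevenly. Ero1lb, the form typical of secretory cells, was at 27.4 FPM in mouse 1 of 12w-res and at 91.5, 79.2, 91.9 and 91.8 in the other 4 mice, against 23.4, 17.6, 38.3 and 13.2 at 12w+dox. Its log2 fold change was 1.69 ± 0.35 (adjusted p = 0.00181 by limma), with mouse 1 inside the range of 12w+dox, and without that mouse it was 2.02 ± 0.24 (adjusted p = 4.32e-05 by limma). The more widely expressed Ero1l was at 59.2, 66.4, 81.4, 80.8 and 81.8 FPM against 51.6, 60.7, 75.3 and 58.4, and the groups overlapped (adjusted p = 0.121 by limma).

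Of the 7 genes of ER-associated degradation 6 rose, although Herpud1 and Sel1l turned negative on total reads. Derl3, a channel component induced by XBP1, was at 22.5, 29.4, 30.3, 32.5 and 38.8 FPM against 15.8, 11.1, 9.92 and 5.39, a log2 fold change of 1.57 ± 0.26 (adjusted p = 0.000396 by limma). Edem2 and Edem1, which trim glycans to mark misfolded proteins, rose by 1.42 ± 0.14 and 1.16 ± 0.18 (adjusted p = 5.54e-06 and 0.000243 by limma). The ubiquitin ligase Syvn1 rose by 0.83 ± 0.13, its partner Sel1l by 0.63 ± 0.11 and Herpud1 by 0.48 ± 0.13 (adjusted p = 0.000212, 0.000432 and 0.00971 by limma). The call of Syvn1 was lost on total reads (adjusted p = 0.378 by limma). With females only Herpud1 was not called (adjusted p = 0.217 by limma). Both Sec61 genes, subunits of the channel through which proteins enter the ER, rose: Sec61b by 1.32 ± 0.21 and Sec61a1, which turned negative on total reads, by 0.43 ± 0.10 (adjusted p = 0.000320 and 0.00553 by limma). Sec61a1 was not called with females only (adjusted p = 0.137 by limma).

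Among the 8 sensors and transcription factors 5 rose. Creb3l1 (OASIS), an ER membrane factor known for genes of collagen secretion, moved most of all 39: it was at 25.0, 25.1, 42.4, 51.7 and 54.8 FPM in 12w-res and at 10.4, 4.46, 1.63 and 3.49 at 12w+dox. The groups were apart, the males (mice 1 and 2) were the lowest of 12w-res, and the log2 fold change was 3.04 ± 0.37 (adjusted p = 3.11e-05 by limma). Xbp1 was at 341, 353, 385, 389 and 370 FPM against 234, 240, 211 and 166, a log2 fold change of 0.80 ± 0.12 (adjusted p = 0.000140 by limma). Atf4 rose by 0.71 ± 0.21, Eif2ak3, the PERK gene, by 0.54 ± 0.13 and Atf6 by 0.53 ± 0.11 (adjusted p = 0.0141, 0.00607 and 0.00181 by limma), and Eif2ak3 and Atf6 turned negative on total reads. Atf4 was no longer called without mouse 4 of 12w+dox. Nor was Atf4 called on total reads or with females only (adjusted p = 0.784 and 0.233 by limma). The call of Xbp1 was lost on total reads (adjusted p = 0.281 by limma). Those of Eif2ak3 and Atf6 were also lost with females only (adjusted p = 0.0960 and 0.0804 by limma). Ddit3, the CHOP gene, was at 53.8 FPM in mouse 1 of 12w-res and at 19.4 to 23.5 in the other 4, against 12.3 to 24.6 at 12w+dox, and was not called (log2 fold change 0.58, adjusted p = 0.126 by limma). Without mouse 1 its log2 fold change was 0.32 ± 0.21 (adjusted p = 0.272 by limma).

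All 4 targets of ATF4 and CHOP rose. The calls of Trib3 and Chac1 were lost on total reads (adjusted p = 0.124 and 0.0641 by limma) and with females only (adjusted p = 0.0571 and 0.0524 by limma). Asns, asparagine synthetase, was at 150.5, 99.8, 113, 95.9 and 111 FPM against 34.0, 41.2, 32.6 and 23.0, a log2 fold change of 1.80 ± 0.18 (adjusted p = 4.53e-06 by limma). Chac1, which degrades glutathione, was at 71.4, 22.2, 18.4, 22.1 and 27.6 FPM against 8.83, 13.9, 13.8 and 8.07 (log2 fold change 1.34 ± 0.33, adjusted p = 0.00609 by limma). Trib3, a pseudokinase that restrains ATF4 and CHOP, was at 99.4, 27.7, 28.4, 20.01 and 34.3 FPM against 9.002, 17.9, 20.8 and 10.6 (log2 fold change 1.32 ± 0.38, adjusted p = 0.0133 by limma). Ppp1r15a, which restores translation by targeting eIF2alpha for dephosphorylation, rose by 1.01 ± 0.17 (adjusted p = 0.000478 by limma). Mouse 1 of 12w-res was the highest of its group in all 4, and by far in Trib3 and Chac1. Without it the log2 fold change of Trib3 was 0.95 ± 0.26 (adjusted p = 0.0116 by limma) and that of Chac1 was 1.01 ± 0.23 (adjusted p = 0.00387 by limma). Selenbp1, a cytosolic selenium-binding protein that is no part of the folding machinery, was the 1 gene that fell: it was at 7.18, 6.66, 4.14, 4.19 and 3.81 FPM against 8.27, 9.12, 11.4 and 7.01, a log2 fold change of -0.75 ± 0.21 (adjusted p = 0.0131 by limma), with mouse 1 of 12w-res just above the lowest 12w+dox mouse.

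**Figure D3:**
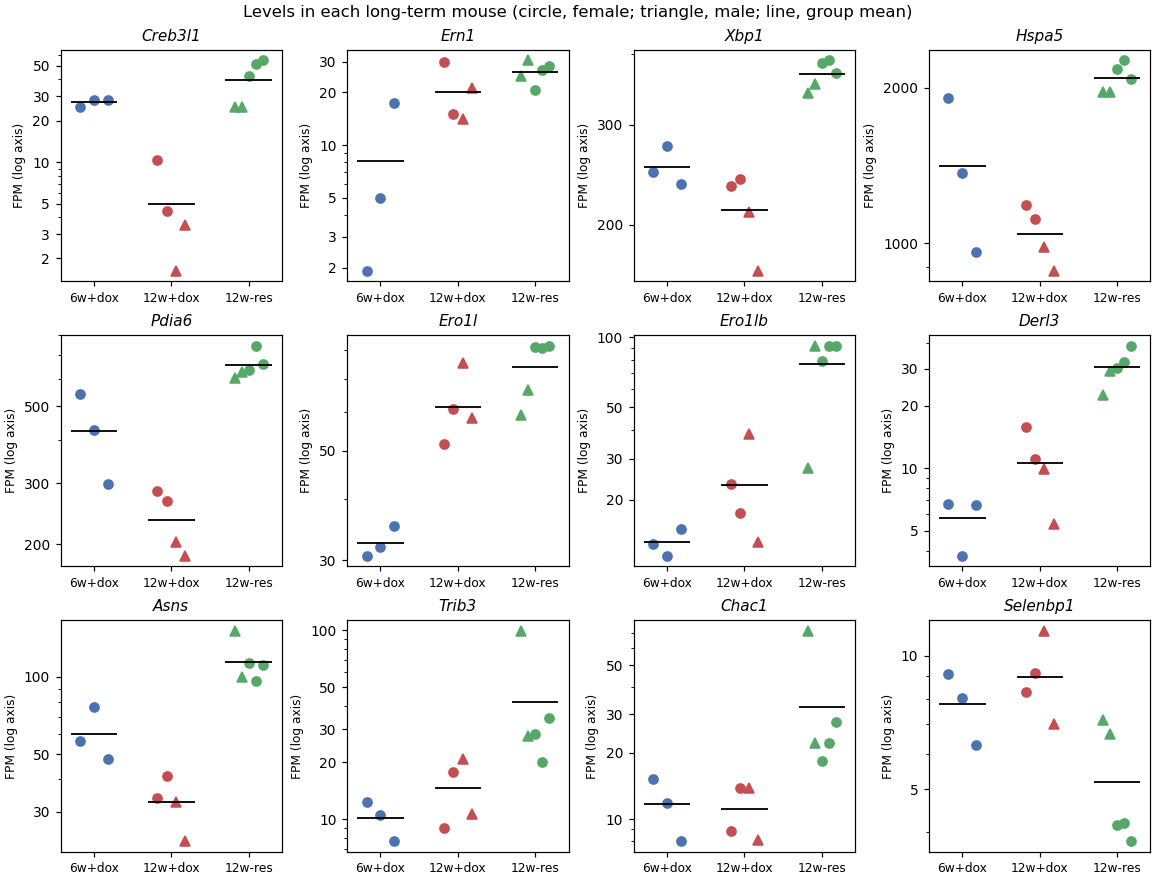
Levels in FPM (log axis, a range of its own in each panel) of 12 of the genes, chosen after their values were seen, in each long-term mouse, with circles for females, triangles for males and lines for group means. Creb3l1, Pdia6 and Asns dip at 12w+dox, Ern1, Ero1l and Derl3 are lowest at 6w+dox, and mouse 1 of 12w-res (the leftmost triangle) stands apart in Ero1lb, Trib3 and Chac1.

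The counts were stable to leaving out single mice: 32 to 34 genes rose and 1 fell without any one of the 12, and without mouse 1 of 12w-res the count stayed within that range. Other choices moved them. With females only (3 against 2) 20 rose and 1 fell. When the libraries were scaled to total recovered reads, which Pomc dominates in 12w-res, the median of all genes moved by -0.61 and 19 of the 39 rose and 3 fell (Derl1, Dnajb11 and Selenbp1), against 733 rising and 9239 falling among all genes, so that the 39 stood 0.89 above the median of all genes on that scale and 0.95 above it on the deposited scale. With Pomc left out of those totals, an alternative chosen after seeing the data, 31 rose and 1 fell, against 2012 rising and 4478 falling among all genes. On each of these scales 38 of the 39 genes were above the median of all genes.

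Of the 12 genes with an ERSE or ERSE-II in the promoter, all 12 rose, with a median of 0.98. Of the 21 with a promoter and no match, 16 rose and 1 fell, with a median of 0.81. Outside the list, 37 genes held either element, 16 of them were tested, and 5 of these rose and 2 fell, with a median of 0.02. The 5 were Krtcap2 (log2 fold change 1.51 ± 0.18, adjusted p = 2.73e-05 by limma), a subunit of the oligosaccharyltransferase, the ER mannosyltransferase gene Alg12 (0.53 ± 0.14, adjusted p = 0.0103), Nucb1 (0.42 ± 0.13, adjusted p = 0.0169), Lgalsl and Spats2l. The 4 genes with an ATF4 element all rose, with a median of 1.33. Of the 29 listed genes with a promoter and no such element, 24 rose (82.76%) and 1 fell, with a median of 0.92. Of 322 other genes tested that hold this short element 81 rose (25.16%) and 55 fell. Of all genes tested 19.4% rose and 18.3% fell. In 12w-res against 6w+dox the listed genes with and without an ERSE or ERSE-II rose at the same rate. There 8 of 12 with an element rose (66.67%, median 0.61) and 14 of 21 without a match (66.67%, median 0.77).

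Other genes of the secretory pathway, from lists that were also written with earlier results of these data known, moved in the same direction at different rates. Of 23 other translocation genes 18 rose and 1 fell, led by the signal peptidase subunit Sec11c (24.3 to 98.4 FPM, log2 fold change 2.02 ± 0.18, adjusted p = 1.64e-06 by limma), the translocon-associated Ssr4 (1.12 ± 0.19) and Tram1 (1.10 ± 0.15), while Sec61a2 fell by 0.68. Of 18 genes of the oligosaccharyltransferase and of glycan trimming 14 rose and 0 fell, with Krtcap2, Dad1 (1.04 ± 0.13) and Rpn2 (0.97 ± 0.12) in front. Of 29 other ER chaperones and thiol oxidoreductases 17 rose and 2 fell, led by the prolyl isomerases Fkbp11 (2.64 ± 0.28), Fkbp9 (1.93 ± 0.15) and Fkbp10 (1.54 ± 0.19), and Tmx4 and Txndc12 fell. Of 27 ER to Golgi transport genes 19 rose and 0 fell, led by the KDEL receptor Kdelr3 (1.92 ± 0.32), the cargo lectin Lman1 (1.32 ± 0.14) and the coat subunit Sec23b (1.00 ± 0.12). Of 36 other genes of the integrated stress response 24 rose and 0 fell, led by the stress-induced chromatin protein gene Nupr1 (5.61 to 60.4 FPM, 3.39 ± 0.25, adjusted p = 2.06e-07 by limma), the arginine transporter Slc7a3 (3.29 ± 0.37) and the serine synthesis enzyme Phgdh (2.96 ± 0.26). Of 22 other genes of ER-associated degradation 8 rose and 0 fell (Erlec1 1.10 ± 0.10, Vimp 0.96 ± 0.15, Os9 0.90 ± 0.12). The 19 other regulators of the unfolded protein response were mixed, with 5 higher and 3 lower, and of 26 cytosolic and mitochondrial chaperones 5 rose and 1 fell with a median of 0.03, a share called higher near that of all genes.

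**Figure D4:**
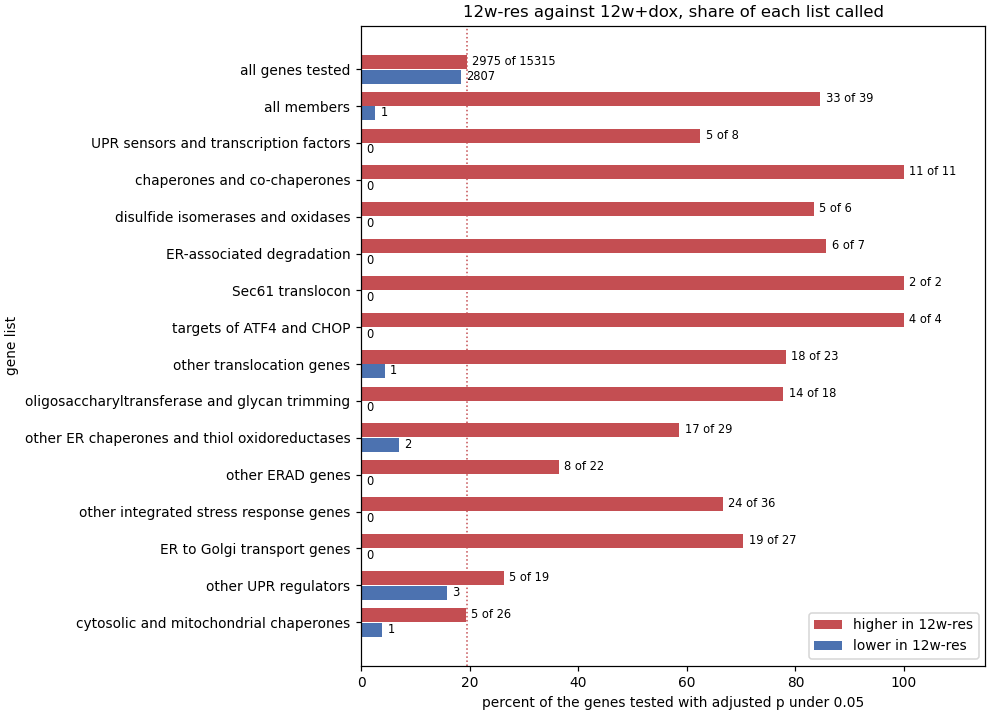
Percent of the genes tested in each list that were called higher (red) or lower (blue) in 12w-res against 12w+dox, with counts beside the bars and the share of all genes called higher as a dotted line. Lists of ER folding, translocation, glycosylation and transport reach well past the dotted line, and the cytosolic and mitochondrial chaperones (5 of 26) lie at it.

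Markers of other cells moved with the same contrast. All 9 fibroblast and pericyte markers rose (summed level 1003 to 1595 FPM in 12w-res against 183 to 556 at 12w+dox), as did all 8 endothelial markers (218 to 298 against 69.1 to 142 FPM) and 8 of 9 macrophage and leukocyte markers (258 to 514 against 154 to 209 FPM). Prl rose among the markers of the other hormone cells, of which 2 of 10 rose (summed level 17366 to 35015 against 1220 to 13074 FPM), and Jchain rose among 5 plasma cell and B cell markers tested (33.7 to 35.4 against 36.5 to 48.6 FPM in sum). Of 9 markers of melanotrophs and corticotrophs 2 rose, Pcsk1 and Pcsk2, and 3 fell, while their sum, which Pomc carries, was 459198 to 581532 against 96654 to 198999 FPM. Of 6 stem and folliculostellate markers 4 rose and 0 fell (Sox9 1.14 ± 0.17, summed level 78.0 to 114 against 73.1 to 101 FPM), and of 6 neural lobe markers 0 rose and 1 fell (16.01 to 27.7 against 11.3 to 32.6 FPM). In these groups 0 markers of these lists were at 0 in a mouse. The part of the marker changes in the result on the 39 genes was not tested.

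Between 6w+dox and 12w+dox, the comparison of shorter and longer RB depletion, the genes split. Of the 39, 4 rose and 9 fell, where 10.4% of all genes rose and 12% fell, so that the share that rose was at the level of all genes. The median log2 fold change was -0.21. With the demand of an absolute log2 fold change over 1, only Ern1 rose (3.15% of all genes) and Creb3l1 and Sec61b fell (4.04% of all genes). The call of Ern1 was lost with edgeR (adjusted p = 0.0765) and DESeq2 (adjusted p = 0.0807). Of 29 other ER chaperones and thiol oxidoreductases 1 rose and 14 fell, and of 23 translocation genes 0 and 9. For oligosaccharyltransferase and glycan trimming it was 1 and 7 of 18, and for the integrated stress response 0 and 8 of 36. Of 27 ER to Golgi genes 0 rose and 5 fell, and of 26 cytosolic and mitochondrial chaperones 2 and 6. Of 22 other genes of ER-associated degradation 2 rose and 1 fell, and of 19 other regulators 2 and 0.

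Creb3l1 fell most, from 25.1, 28.2 and 28.5 FPM at 6w+dox to 10.4, 4.46, 1.63 and 3.49 in 12w+dox mice, which is a log2 fold change of -2.58 ± 0.42 (adjusted p = 0.00130 by limma). Sec61b was at 147, 147 and 77.8 FPM and then at 71.1, 60.2, 65.6 and 34.6 (-1.08 ± 0.24, adjusted p = 0.00743 by limma). Among chaperones Manf (-0.92 ± 0.18), Creld2 (-0.70 ± 0.15) and Sdf2l1 (-0.67 ± 0.19) fell (adjusted p = 0.00374, 0.00619 and 0.0233 by limma), and among isomerases Pdia3 (-0.86 ± 0.25), Pdia6 (-0.83 ± 0.20) and Pdia4 (-0.68 ± 0.17; adjusted p = 0.0257, 0.0102 and 0.0124 by limma). The calls of Sdf2l1 and Pdia3 were lost in 9 and 7 of the alternatives, among them sex as a covariate (adjusted p = 0.0776 and 0.0790 by limma). Asns went from a mean of 60.2 to 32.7 FPM (-0.87 ± 0.20, adjusted p = 0.00914 by limma). Of the genes of ER-associated degradation 0 of 7 were called, at log2 fold changes of -0.21 to 0.78. The other 8 chaperones were not called, and Hspa5 was at 1910, 1370 and 962 FPM at 6w+dox, overlapping 12w+dox.

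The genes that rose came from the same roles as some that fell, with 3 of the 4 among the sensors and transcription factors and Ero1l among the isomerases and oxidases. Ern1, the IRE1 gene, was at 1.92, 4.99 and 17.3 FPM at 6w+dox and at 29.9, 15.1, 14.1 and 21.1 at 12w+dox (1.67 ± 0.47, adjusted p = 0.0221 by limma), with the groups overlapping through mouse 3 of 6w+dox. Without that mouse the log2 fold change was 2.43 ± 0.32 (adjusted p = 0.000163 by limma). The Ern1 call was lost in 9 of the alternatives, among them both count tests, only the groups compared (adjusted p = 0.0815 by limma), females only (adjusted p = 0.121 by limma) and 4 single mice left out. Ero1l was at 30.6, 32.0 and 35.1 FPM and then at 51.6 to 75.3 (0.89 ± 0.15, adjusted p = 0.00137 by limma), with no overlap. Creb3l2, a relative of Creb3l1, rose by 0.93 ± 0.24 and Atf6 by 0.47 ± 0.12 (adjusted p = 0.0144 and 0.0173 by limma).

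The counts in this comparison moved with single mice. Without mouse 3 of 6w+dox 16 genes fell, without mouse 2 of that group 5 fell and 2 rose, and without mouse 1 only 1 rose. The 6w+dox mice were female and the 2 lowest 12w+dox mice for Hspa5, Pdia6 and Hsp90b1 were the males (mice 3 and 4). With sex as a covariate 5 rose and 7 fell, and with females only, which leaves 2 mice at 12w+dox, 3 rose and 1 fell. On total reads, where the median of all genes moved by 0.29, 9 rose and 8 fell, against 3707 rising and 766 falling among all 15315 genes. Several lists of markers of other cells fell in the same contrast: the summed level of markers of the other hormone cells was 58704 to 94210 FPM at 6w+dox against 1220 to 13074 at 12w+dox (6 of 10 fell), that of the neural lobe 65.1 to 179 against 11.3 to 32.6 FPM (6 of 6 fell), that of the stem and folliculostellate list 166 to 190 against 73.1 to 101 FPM (4 of 6 fell) and that of the endothelium 197 to 255 against 69.1 to 142 FPM (4 of 8 fell). Of 9 fibroblast and pericyte markers 3 fell and 0 rose. Other lists did not fall as a whole. Of 9 macrophage and leukocyte markers 2 rose and 0 fell (107.2 to 153.8 against 154.4 to 209.1 FPM in sum). Of 9 melanotroph and corticotroph markers 3 rose and 2 fell, and of 5 plasma cell and B cell markers tested 1 rose and 1 fell. The part of these changes in the result was not tested.

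Set against 6w+dox, the level at which dox had been removed, 25 of the 39 genes were higher in 12w-res and 0 were lower, where 17% of all genes rose and 16.8% fell. The median log2 fold change was 0.67, and 12 rose by over 1 on the log2 scale (5.81% of all genes). In 27 of the 39 every 12w-res mouse was above every 6w+dox mouse, against 16.9% of all genes. This comparison and the one with 12w+dox share the 12w-res mice.

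By role, all 7 genes of ER-associated degradation, all 4 targets of ATF4 and CHOP, 5 of 8 sensors and factors, 6 of 11 chaperones, 3 of 6 isomerases and oxidases and 0 of 2 Sec61 genes were called. Ero1lb was at 12.9, 11.5 and 14.99 FPM at 6w+dox, below every 12w-res mouse (2.38 ± 0.38, adjusted p = 0.000304 by limma). Derl3 was at 6.75, 3.79 and 6.67 FPM (2.34 ± 0.28, adjusted p = 3.21e-05 by limma), Ern1 rose by 2.10 ± 0.45 and Trib3 by 1.77 ± 0.41 (adjusted p = 0.00274 and 0.00465 by limma). The log2 fold change of Ern1 was 2.86 ± 0.31 without mouse 3 of 6w+dox and that of Trib3 1.39 ± 0.28 without mouse 1 of 12w-res (adjusted p = 1.57e-05 and 0.00198 by limma). Edem1 (1.31 ± 0.20), Edem2 (1.27 ± 0.16), Chac1 (1.29 ± 0.36) and Dnajb9 (1.21 ± 0.19) followed (adjusted p = 0.000204, 3.85e-05, 0.0144 and 0.000326 by limma). The call of Chac1 was lost without mouse 3 of 6w+dox (1.05 ± 0.40, adjusted p = 0.0543 by limma), and without mouse 1 of 12w-res its log2 fold change was 0.96 ± 0.24 (adjusted p = 0.00896 by limma). Ero1l rose by 1.16 ± 0.14, Dnajc3 by 1.11 ± 0.13, Hyou1 by 1.05 ± 0.16 and Creb3l2 by 1.03 ± 0.23 (adjusted p = 3.39e-05, 3.08e-05, 0.000221 and 0.00361 by limma).

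The remaining calls were at 1 or less on the log2 scale. Atf6 rose by 1.00 ± 0.12, Ppp1r15a by 0.92 ± 0.19, Asns by 0.92 ± 0.19, Sel1l by 0.77 ± 0.12 and Canx by 0.74 ± 0.12 (adjusted p = 2.87e-05, 0.00191, 0.00250, 0.000210 and 0.000310 by limma). Eif2ak3 rose by 0.70 ± 0.15, Sdf2l1 by 0.68 ± 0.18, Pdia6 by 0.67 ± 0.19, Hspa5 by 0.62 ± 0.21 and Syvn1 by 0.61 ± 0.14 (adjusted p = 0.00225, 0.0107, 0.0139, 0.0358 and 0.00385 by limma). Herpud1 rose by 0.56 ± 0.14, Xbp1 by 0.54 ± 0.13 and Derl1 by 0.33 ± 0.12 (adjusted p = 0.00711, 0.00507 and 0.0462 by limma). Pdia4 (207 FPM in 6w+dox, 205 in 12w-res), Dnajb11 (88.5 and 93.1) and Sec61a1 (255 and 278) had similar means and were not called. Creb3l1, which had moved most in the comparisons with 12w+dox, had means of 27.2 FPM (6w+dox) and 39.8 FPM (12w-res) and was not called (adjusted p = 0.404 by limma).

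The number of calls ran from 21 without mouse 3 of 6w+dox to 30 without mouse 1 of that group. Hspa5 and Derl1 were the calls most easily lost, without 6 and 9 of the single mice respectively. On total reads 17 rose and 2 fell (Pdia4 and Selenbp1), against 1067 rising and 5064 falling among all genes, with the median of all genes moved by -0.33. On totals without Pomc 30 rose and 0 fell, against 2883 rising and 2140 falling among all genes. The marker lists again moved with the contrast, with 5 of 9 fibroblast and pericyte markers and 6 of 9 macrophage and leukocyte markers higher and 6 of 6 neural lobe markers lower in 12w-res. Of the 9 melanotroph and corticotroph markers 4 were higher and 3 lower (summed level 459198 to 581532 FPM against 109770 to 381486 at 6w+dox). Of the 10 markers of the other hormone cells 3 were lower and 0 higher (17366 to 35015 against 58704 to 94210 FPM). Of 8 endothelial markers 2 were higher, and of 6 stem and folliculostellate markers 2 were lower. The part of these changes in the result was not tested. Of the other lists, 10 of 22 genes of ER-associated degradation rose (Erlec1 1.31 ± 0.11), as did 13 of 36 of the integrated stress response (Nupr1 3.14 ± 0.27) and 11 of 23 translocation genes (2 fell). Of 29 other ER chaperones and thiol oxidoreductases 10 rose and 5 fell, with a median of 0.18. Of 19 other regulators of the unfolded protein response 6 rose and 2 fell, with a median of 0.02. For oligosaccharyltransferase and glycan trimming it was 6 and 1 of 18, and for ER to Golgi transport 9 and 1 of 27. Of 26 cytosolic and mitochondrial chaperones 2 rose and 5 fell.

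Males and females of the long-term experiment were compared for their difference between 12w-res and 12w+dox (2 against 2 males, 3 against 2 females). The sex by treatment interaction called 0 of the 39 genes by limma (3 at an unadjusted p under 0.05: Ero1l, Dnajb9 and Ppp1r15a), where 13 of 15315 genes were called. An unadjusted p under 0.05 was found for 654 of the 15315. With this number of mice per sex, only large differences could be seen.

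In the days after dox removal the same genes were measured at 1, 3 and 5 days. Against 16w+dox, limma called 0 of the 39 genes in either direction at each time. Of all genes tested 0.043% rose and 0.0573% fell after 1 day, 0.158% and 0.201% after 3 days and 0.337% and 0.172% after 5 days, so that few genes of any kind were called. Unadjusted p-values under 0.05 were found for 2, 11 and 8 of the 39 genes, against 1823, 2323 and 1889 of all 13958 genes tested. Tested on the recovered reads, edgeR called 0 at each time, while DESeq2 called 0, 5 and 1. Females made up the 1d-dox and 5d-dox groups and males the 16w+dox group, so that for these times sex and time off dox cannot be told apart.

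**Figure D5:**
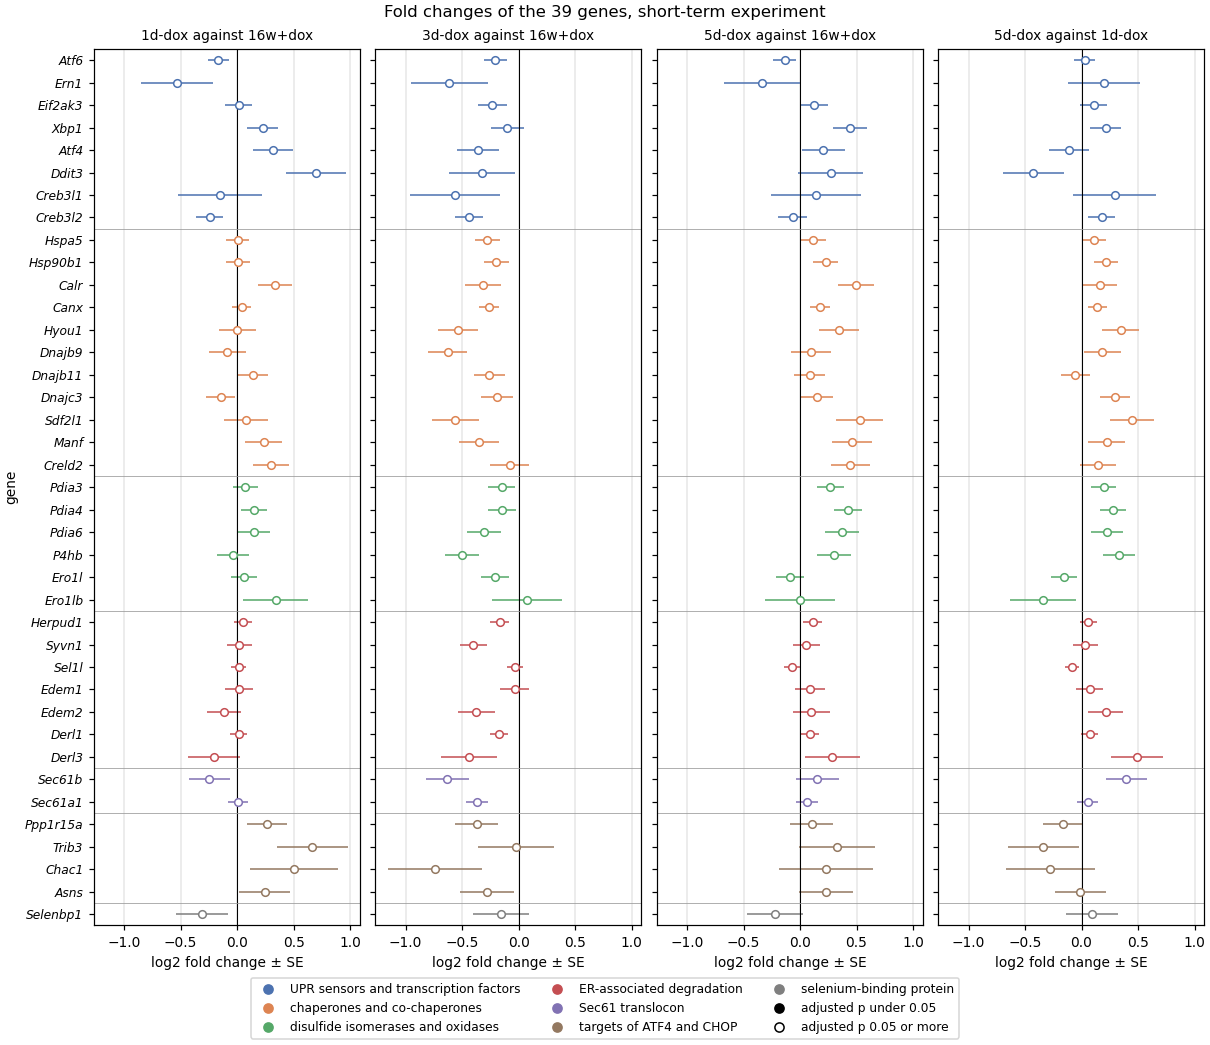
Log2 fold change with its standard error (horizontal bar) of each gene in the 4 short-term comparisons, coloured by role, with open symbols where the adjusted p was 0.05 or more. All symbols are open, those of 3d-dox lie left of 0 for 38 of 39 genes, and no fold change exceeds 1 in size.

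After 1 day the median log2 fold change was 0.02 (range -0.53 to 0.70). The smallest unadjusted p-values belonged to Ddit3, at 8.12, 9.83, 4.81 and 9.89 FPM against 4.04, 4.97 and 5.03 (0.70 ± 0.27, adjusted p = 0.286 by limma), to Calr (0.34 ± 0.15, adjusted p = 0.363 by limma) and to Trib3 (0.67 ± 0.31, adjusted p = 0.390 by limma). In each of these the groups overlapped. All 10 markers of the other hormone cells were below 0 (median -1.92, Lhb called at -2.57 ± 0.35). So were all 9 fibroblast and pericyte markers (median -0.88) and all 9 macrophage and leukocyte markers (median -0.33). The 8 endothelial markers were also below 0 (median -0.59, Cdh5 called at -1.10 ± 0.18). Of 8 melanotroph and corticotroph markers 5 were above 0, and of 4 stem and folliculostellate markers 3. The part of these markers was not tested.

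The comparison of 3d-dox with 16w+dox was between males. The median log2 fold change was -0.28 against 0.01 for all genes, 38 of the 39 values were below 0 and 38 below the median of all genes under each scaling tried, and in 15 of the 39 every 3d-dox mouse was below every 16w+dox mouse, against 11% of all genes. Sec61a1 was at 35.9, 36.9 and 32.6 FPM against 41.2, 50.9 and 44.8 (-0.37 ± 0.10, adjusted p = 0.102 by limma). Dnajb9 was at 27.4, 25.3 and 21.1 FPM against 31.1, 51.6 and 34.4 (-0.63 ± 0.18, adjusted p = 0.121 by limma), and Creb3l2 at 134, 149 and 116 against 178, 170 and 190 (-0.44 ± 0.13, adjusted p = 0.128 by limma). These differences did not pass the test, although DESeq2 called these 3 genes with P4hb and Sec61b. Pomc took 4.96% to 10.6% of the reads in these mice, against 12.3% to 12.96% at 16w+dox. All 10 markers of the other hormone cells were above 0 (median 0.97, Lhb called at 1.91 ± 0.38), with a summed level of 173 to 907 FPM against 201 to 270 FPM. The part of Pomc and of these markers was not tested. Of the other lists, 26 of 27 ER to Golgi transport genes and 20 of 22 translocation genes were also below 0, with 0 and 1 called. The same held for 23 of 26 cytosolic and mitochondrial chaperones, which are no ER genes. The 18 other regulators of the unfolded protein response were mixed, with 10 below 0 and 8 above (median -0.07). Of all 13958 genes tested 6709 were below 0.

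After 5 days the median was 0.15 (range -0.33 to 0.53), with 32 of 39 values above 0, against 6948 of 13958 for all genes. Pdia4 was at 108, 107 and 135 FPM against 76.4, 93.2 and 90.1 (0.43 ± 0.12, adjusted p = 0.151 by limma), Calr at 682, 705 and 804 against 489, 476 and 592 (0.50 ± 0.16, adjusted p = 0.199 by limma) and Xbp1 at 40.9, 42.3 and 50.9 against 27.1, 34.2 and 37.4 (0.44 ± 0.15, adjusted p = 0.214 by limma). In these 3 genes the groups did not overlap, and none passed the test by limma. The summed level of the fibroblast and pericyte markers was 47.4 to 83.0 FPM in the 5d-dox females against 108 to 146 FPM in the 16w+dox males, and that of the endothelial markers 12.97 to 17.6 against 29.6 to 51.6 FPM. Of the 10 markers of the other hormone cells 9 were below 0 (median -1.98, Lhb called at -2.65 ± 0.38), with a summed level of 26.1 to 103 against 201 to 270 FPM. The part of these markers was not tested. Between females, 5d-dox against 1d-dox, limma again called 0 of the 39 genes (0 by edgeR and DESeq2), where 0.00716% of all genes rose and 0.00716% fell. An unadjusted p under 0.05 was found for 5 of the 39, against 883 of all 13958 genes tested. The 3 smallest p-values of the 39 there were those of Pdia4 (0.28 ± 0.12, adjusted p = 0.719 by limma), P4hb (0.33 ± 0.14, adjusted p = 0.733) and Sdf2l1 (0.45 ± 0.19, adjusted p = 0.742).

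Some genes were uneven within a group. Ern1 was at 56.2 FPM in mouse 2 of 16w+dox and at 16.0 and 16.7 in the other mice of that group, and Creb3l1 at 6.495 against 1.997 and 1.48 in the same mice. Chac1 was at 4.41 FPM in this mouse against 1.12 and 1.51, and at 6.36 in mouse 4 of 1d-dox against 1.60 to 3.33. With and without mouse 2 of 16w+dox the log2 fold change of Ern1 was -0.61 and -0.03 after 3 days, that of Creb3l1 -0.56 and -0.01, and that of Chac1 -0.74 and -0.26, none of them called. Derl3 and Selenbp1 were low in all short-term groups, at 0.720 to 2.62 and 0.714 to 2.09 FPM.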

How the data were processed

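The authors aligned the reads to mm10 with STAR and assigned them to RefSeq genes. The deposited tables hold, per mouse, a signal in FPM, which is the reads of a gene after scaling with DESeq2 size factors, for genes that passed their filter on low reads. The counting tool and its use of strand are not given in the sources used here. Dividing by what 1 read is worth gave whole numbers for 100% of the values (within 0.1 of a read), and these recovered reads were used in count tests. In the short-term data, 4 lines that name no gene held 68.8% to 75.0% of a library and were left out, as were 2 lines without a name in the long-term table. No per-sample column was left unused, and columns of the authors' own comparisons were not used.

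A gene was tested if over 50% of the mice of at least 1 group had 10 reads or more. Differences in log2(FPM + 0.5) were tested with limma 3.58.1 under R 4.3.3, with all groups of an experiment in 1 fit. A trended prior was used, and Benjamini-Hochberg adjustment over all genes tested. Limma was also run on simulated reads, which had the same dispersion in every gene. It was used in place of a count test because the deposited values are scaled. Calls were made at adjusted p-values under 0.05. Fold changes are on the log2(FPM + 0.5) scale and understate changes of genes with few reads. Alternatives included edgeR 4.0.16 and DESeq2 1.42.0 on recovered reads, other scalings, filters and pseudocounts, sex, the replicate number as a block and each mouse left out.

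The genes and lists were chosen with earlier results of these data known. All 39 genes are named, with statistics for called genes or, where fewer than 3 were called, for the 3 with the smallest p. Of other lists, up to 3 genes a direction are named by the largest change among called genes whose groups do not overlap. Genes with promoter elements outside the list were named after their values were seen. Promoters came from RefSeq, in which Ero1l and Ero1lb are Ero1a and Ero1b, and transcript lengths from GENCODE vM21. Carboxy-terminal retention signals were not analysed here. The labels name each mouse separately but no batch or date.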

Additional observations from a re-analysis of the deposited data

Results flagged for a closer look

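In 117 sets of values, 39 genes in each of the groups of 4 or 5 mice, 8 had a highest or lowest mouse far from the rest of its group by Dixon's test at the 95% level. Chance flags about 1 set in 20, and genes of a pathway are not independent of each other. In 12w-res, mouse 1 accounted for 4 of the 8: Ddit3 was at 53.8 FPM against 19.4 to 23.5 in the other 4 mice, Trib3 at 99.4 against 20.01 to 34.3, Chac1 at 71.4 against 18.4 to 27.6, and Ero1lb at 27.4 against 79.2 to 91.9. Mouse 4 of 12w-res was high in Calr (2387 FPM against 1913 to 2023) and in Dnajb11 (107 against 89.2 to 90.4). Mouse 4 of 12w+dox was low in Manf (105 FPM against 152 to 158), and mouse 2 of 1d-dox was high in Ero1lb (15.2 FPM against 6.83 to 7.19).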

How the results depend on the processing

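Counts are given as genes of the 39 called higher and lower. In 12w-res against 12w+dox (33 and 1), other pseudocounts, TMM scaling, other filters, only the groups compared, sex as a covariate, edgeR and DESeq2 each gave 33 and 1, and single mice left out gave 32 to 34 and 1. Females only gave 20 and 1, a minimum absolute log2 fold change of 1 gave 19 and 0, and totals of recovered reads gave 19 and 3. On totals the log2 fold changes of Atf6 (-0.12), Eif2ak3 (-0.12), Canx (-0.14), Dnajb11 (-0.23), Herpud1 (-0.18), Sel1l (-0.021) and Sec61a1 (-0.23) were reversed, where the median of all genes was -0.61.

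In 12w+dox against 6w+dox (4 and 9), the minimum fold gave 1 and 2, totals 9 and 8, totals without Pomc (chosen after seeing the data) 8 and 8, only the groups compared 2 and 5, females only 3 and 1, and single mice left out 1 to 4 and 5 to 16. Among all genes, totals gave 3707 and 766 there, and totals without Pomc 3668 and 960. In 12w-res against 6w+dox (25 and 0), the minimum fold gave 12 and 0, totals 17 and 2, sex as a covariate 28 and 1, females only 24 and 1, and single mice left out 21 to 30 and 0 to 1, with the 1 lower gene appearing without mouse 1 of 12w-res or without mouse 3 of 6w+dox. In the short-term comparisons the counts stayed at 0 under the alternatives run, except that DESeq2 called 5 lower in 3d-dox and 1 higher in 5d-dox against 16w+dox. The causes of these differences were not tested, apart from the smaller number of mice or the added demand that an alternative itself brings.

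Mice of different groups share replicate numbers in the labels, but same-number mice did not deviate together: the correlations of their deviations from the group means were -0.165 to 0.237 in the long-term experiment and mixed in sign in the short-term one, so that the numbers were not taken to pair mice. With the number as a replicate block the counts were 2 and 7, 33 and 1, and 23 and 0 in the long-term comparisons, and 0 in all 4 short-term ones. Groups of 3 to 5 mice limit the size of difference that can be called.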
